A study of Mus musculus with 12 samples.

Results

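The 2 ends of an Esrrb reporter sort were compared, EsrrbNeg against EsrrbHi mouse embryonic stem cells (ESCs), on 3 arrays each, which are 6 of the 12 Illumina MouseWG-6 v2 arrays of the series. Both groups came from the same line under the same culture, E14Tg2a Esrrb-2a-GFPd-IBIH, in which a destabilized GFP follows the coding sequence at both Esrrb alleles. Cells grew for 3 days in medium with 10% serum and LIF after plating at 3000 cells per cm2, were stained for SSEA-1, a surface antigen of undifferentiated ESCs, and the positive cells were sorted by GFP, EsrrbHi from the high gate and EsrrbNeg from the negative gate. RNA of the sorted cells was labelled for the arrays from 100 ng. The remaining arrays hold cells of medium GFP and epiblast stem cells of another line, and they enter here only through the shared fit. The reporter line is a single targeted line, both groups were chosen for SSEA-1, and the study describes the replicates as independent experiments on that line. The p-values speak of the variation among the 12 fitted arrays only. Replicates 1 and 2 of both groups were on chip 1 and replicate 3 of both was on chip 2.

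ESRRB is an orphan nuclear receptor that binds DNA close to the sites of OCT4, SOX2 and NANOG and helps to hold mouse ESCs in the naive state, the cultured counterpart of the epiblast before implantation. In serum with LIF, cells differ from each other in the level of naive factors, and cells that lose them approach a formative or primed state, the counterpart of the epiblast around and after implantation. LIF acts through STAT3 in favour of the naive state, whereas FGF signals through ERK drive the exit from it.

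Esrrb set the gates, so its level checks the labels and is no finding. Its normalized log2 intensity, the scale of all levels below, was 12.04, 12.10 and 11.73 on the EsrrbHi arrays and 5.80, 5.61 and 5.50 on the EsrrbNeg arrays, in the order of replicates 1 to 3 that is kept throughout. The groups did not overlap, and the reading in EsrrbNeg was close to the lower end of the scale. The 6 arrays detected between 13703 and 15393 of 45281 probes (detection p at most 0.01), and their median raw intensities lay between 82.9 and 95.6, which describes background because most probes were not detected. Replicate arrays correlated at 0.987 to 0.996 and arrays of different groups at 0.953 to 0.963 across features.

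Of 11089 features, 2010 (18.1%) were called between the groups by limma with a chip term, at a Benjamini-Hochberg adjusted p of at most 0.05 and a change of at least 1.5-fold. Of all features, 1005 were called higher in EsrrbNeg (9.06%) and 1005 lower (9.06%), and the median change over all features was 0.03. Counts of called members in the lists below are to be read against these shares. Changes are given as log2 fold changes, EsrrbNeg minus EsrrbHi, ± standard error of the fit with 3 arrays per group, and rose and fell are used only of called genes. The 3 arrays of one group did not overlap those of the other in 45.9% of all features and in 995 and 990 of the features called higher and lower, so a lack of overlap is no special mark of a called gene. The falls reached further than the rises. Among features called lower, 75 changed at least 4-fold and 17 at least 8-fold, against 32 and 5 among those called higher. In bulk RNA, fewer cells of a type and less RNA per cell cannot be told apart, and this holds for every value below.

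**Figure D1:**
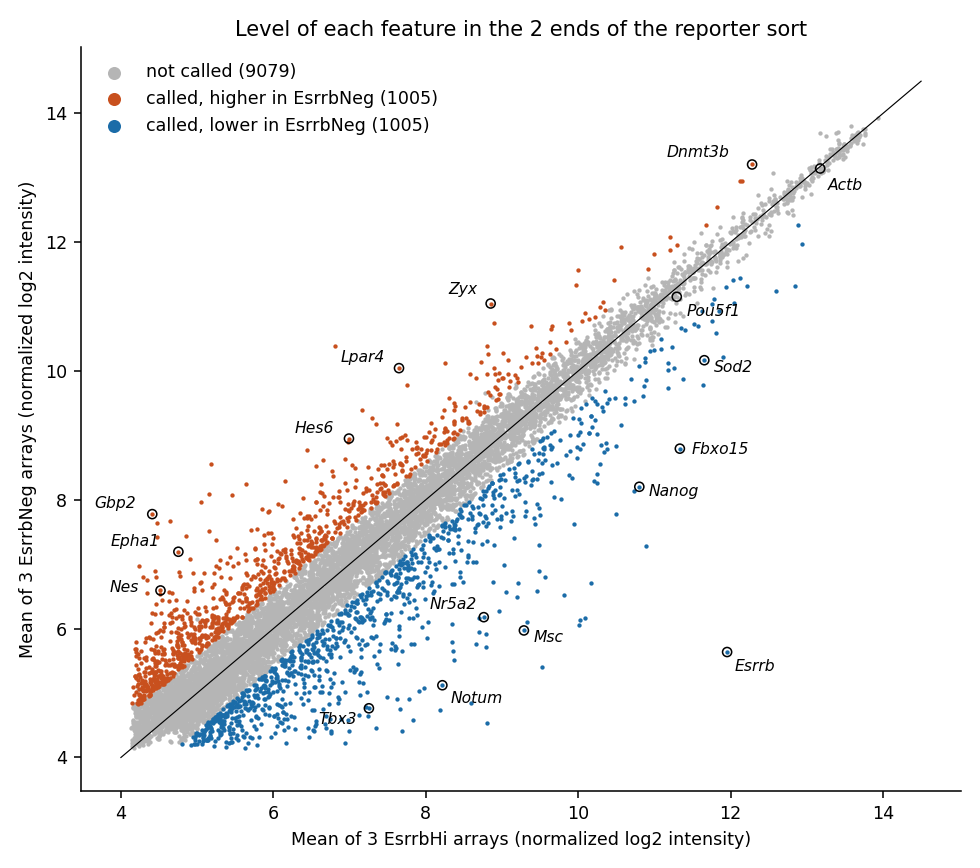
Mean normalized log2 intensity of each of 11089 features on the 3 EsrrbHi arrays (horizontal axis) and the 3 EsrrbNeg arrays (vertical axis), with the line of equal level. Orange points are the 1005 features called higher and blue points the 1005 called lower in EsrrbNeg, Esrrb lies farthest from the line, and Pou5f1 and Actb lie on or close to it.

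Of 17 measured naive transcription factors, 12 fell, none rose and 5 did not pass the test, with a median change of −1.24. Nr5a2, an orphan nuclear receptor active in the early embryo, read 8.78, 8.69 and 8.81 on the EsrrbHi arrays and 6.19, 6.15 and 6.19 on the EsrrbNeg arrays. Each group was tight and the gap between them was wide (−2.58 ± 0.13, adjusted p = 9.86e-09). Tbx3, a T-box factor that supports self-renewal, read 7.35, 7.30 and 7.11 in EsrrbHi and 4.58, 4.80 and 4.91 in EsrrbNeg, again without overlap (−2.49 ± 0.12, adjusted p = 8.97e-09). Klf2, a Krüppel-like factor, read 10.43, 10.59 and 10.45 in EsrrbHi and 7.66, 7.83 and 7.84 in EsrrbNeg. Its 6 arrays were as cleanly split, but its error, from a fit that shares 1 spread with the other groups, was larger (−2.71 ± 0.47, adjusted p = 0.000424). Nanog, the homeodomain factor that guards self-renewal, read 10.97, 10.44 and 10.99 in EsrrbHi and 8.30, 7.77 and 8.53 in EsrrbNeg, still well detected in the negative gate (−2.60 ± 0.17, adjusted p = 7.66e-08). Klf4, of the same family as Klf2, read 7.91, 7.65 and 7.78 in EsrrbHi and 4.81, 4.53 and 5.39 in EsrrbNeg, where replicate 3 kept the most. Klf5, also of that family, was lower on every EsrrbNeg array but missed the fold threshold (−0.53 ± 0.14). Zscan10, a zinc-finger factor of pluripotent cells, read 8.73, 8.99 and 8.99 in EsrrbHi and 8.69, 9.09 and 8.76 in EsrrbNeg, and its groups overlapped (−0.06 ± 0.13, adjusted p = 0.768).

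The Nanog promoter is shown because it holds a joined OCT4 and SOX2 element, a site type of the pluripotency network that is not particular to naive cells. The letters TTTGCATNACAA, searched on both strands from 250 bases before to 50 after the start site in RefSeq promoters of build GRCm38.p6, were found in 10 of 27025 genes (0.037%), and among the 14 naive factors with a promoter in Nanog alone. The window of 80 bases is written 5′ to 3′ on the strand of the gene with the match in capitals.

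Nanog, chr6:122707380-122707459, plus strand, called lower: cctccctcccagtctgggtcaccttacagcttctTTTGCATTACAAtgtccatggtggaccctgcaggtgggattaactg

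The effector and surface genes of naive cells fell in 16 of 18 measured cases, none rose, and the median change was −1.84. Jam2, a junctional adhesion molecule, read 7.40, 6.96 and 7.67 on the EsrrbHi arrays and 4.29, 4.42 and 4.68 on the EsrrbNeg arrays (−2.89 ± 0.20, adjusted p = 1.68e-07). Fbxo15, an F-box protein gene known as an OCT4 target, went from a very even level in EsrrbHi to an uneven one in EsrrbNeg, with values of 11.33, 11.32 and 11.36 in EsrrbHi and 9.19, 8.91 and 8.28 in EsrrbNeg (−2.54 ± 0.20, adjusted p = 5.51e-07). Replicate 3 gave its lowest reading. Manba, the lysosomal beta-mannosidase, read 7.16, 7.16 and 7.05 in EsrrbHi and 4.66, 4.58 and 4.71 in EsrrbNeg (−2.47 ± 0.10, adjusted p = 2.17e-09). Its EsrrbNeg levels, like those of Jam2, were near the lower end of the scale. Both changes are therefore bounds, and an even level there says little about the gene. Dppa5a, an RNA-binding protein gene of pluripotent cells, read 13.75, 13.70 and 13.77 in EsrrbHi and 13.72, 13.50 and 13.34 in EsrrbNeg and was not called (−0.22 ± 0.63, adjusted p = 0.807). Its error is that of the fit that shares 1 spread with the other groups. In a limma fit with a chip term over the 6 arrays alone its adjusted p was 0.144.

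Many of the largest falls were in genes outside the core factor network. Msc, which encodes a basic helix-loop-helix (bHLH) repressor, read 9.35, 9.28 and 9.24 on the EsrrbHi arrays and 5.87, 5.89 and 6.16 on the EsrrbNeg arrays (−3.32 ± 0.14, adjusted p = 2.17e-09). Krt42, a type I keratin, read 9.93, 9.71 and 9.78 in EsrrbHi and 6.67, 6.57 and 6.34 in EsrrbNeg (−3.28 ± 0.10, adjusted p = 1.65e-10). Both lay about 3 units lower in EsrrbNeg on every array. Rfx2, a winged-helix factor known for cilia genes, read 9.61, 9.56 and 9.21 in EsrrbHi and 6.56, 6.70 and 6.51 in EsrrbNeg (−2.87 ± 0.13, adjusted p = 3.66e-09). Khdc3, a member of the maternal complex of the oocyte cortex, fell by a similar amount (−2.91 ± 0.13), as did Fcgrt, the neonatal Fc receptor (−2.91 ± 0.16), Sult6b1, a cytosolic sulfotransferase (−2.88 ± 0.12), Dnajc6, an auxilin (−3.07 ± 0.12), Serpinb6c, a serpin (−3.25 ± 0.12), and Pga5, a pepsinogen (−3.28 ± 0.19).

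Of 13 measured factors shared by naive and primed cells, none rose and 2 fell (15.4%, close to the 18.1% of all features), with a median change of −0.24. Pou5f1, which encodes OCT4, read 11.18, 11.24 and 11.47 on the EsrrbHi arrays and 10.92, 11.33 and 11.21 on the EsrrbNeg arrays, and the groups overlapped (−0.14 ± 0.11, adjusted p = 0.326). Sox2 read 8.53, 8.70 and 8.37 in EsrrbHi and 7.82, 8.38 and 7.57 in EsrrbNeg. It was called (−0.61 ± 0.18, adjusted p = 0.0145), yet EsrrbNeg replicate 2 lay inside the range of EsrrbHi, and the call was lost without EsrrbNeg replicate 3 (−0.51, adjusted p = 0.0789) and without any of 3 other arrays.

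On the primed side, 9 of 18 measured formative and primed factors rose and none fell, with a median of 0.64 and changes from −0.08 to 3.59. Hes6, a bHLH factor that counteracts HES1, read 6.81, 6.97 and 7.20 on the EsrrbHi arrays and 8.84, 9.17 and 8.85 on the EsrrbNeg arrays (1.96 ± 0.12, adjusted p = 6.28e-08). Tcf15, a bHLH factor that marks the approach to the primed state, read 8.45, 8.43 and 8.27 in EsrrbHi and 9.61, 9.67 and 9.11 in EsrrbNeg (1.08 ± 0.12, adjusted p = 1.12e-05). Its replicate 3 difference was the smaller, at 0.84 on chip 2 against 1.20 on chip 1. Otx2, a homeodomain factor that redirects OCT4 to other enhancers, read 7.34, 7.99 and 8.30 in EsrrbHi and 8.51, 9.15 and 9.05 in EsrrbNeg (1.03 ± 0.19, adjusted p = 0.000842). Its replicate 1 arrays were the lowest of their groups, and the highest EsrrbHi array was only just below the lowest EsrrbNeg array. Zic2 and Sox4, a zinc-finger and an HMG-box factor, rose by 0.98 ± 0.14 and 0.95 ± 0.14. Etv5, an ETS factor that responds to FGF, did not pass the test, with 8.56, 8.83 and 8.54 in EsrrbHi and 8.53, 8.78 and 8.48 in EsrrbNeg (−0.05 ± 0.11).

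Genes with the largest rises included several receptors and cell surface proteins. Lpar4, a receptor for lysophosphatidic acid, read 7.48, 7.60 and 7.87 on the EsrrbHi arrays and 10.13, 10.01 and 9.99 on the EsrrbNeg arrays (2.40 ± 0.11, adjusted p = 3.49e-09), and Lpar6, a receptor for the same lipid, read 6.82, 7.41 and 7.25 in EsrrbHi and 9.56, 9.39 and 9.24 in EsrrbNeg (2.24 ± 0.15, adjusted p = 9.11e-08). Both were already detected in EsrrbHi and were higher on every EsrrbNeg array. Car4, a membrane-anchored carbonic anhydrase, read 4.93, 4.71 and 4.92 in EsrrbHi and 7.93, 7.29 and 7.10 in EsrrbNeg (2.58 ± 0.16, adjusted p = 5.97e-08). Tmem54, a membrane protein, rose by 2.60 ± 0.21, Gpx8, a peroxidase of the endoplasmic reticulum, by 2.37 ± 0.10, and Vrtn, the vertnin gene, by 2.46 ± 0.14. Scarf2, a scavenger receptor, Chst1, a keratan sulfate sulfotransferase, and Pdzrn3, a PDZ and RING protein, were above background on no EsrrbHi array and on every EsrrbNeg array. For such genes only a lower bound is given, the mean of the detected group against the other group's floor, which is the lowest signal of any detected probe on each array or the probe's own signal where that is higher. They were at least 4.27-fold, at least 4.40-fold and at least 3.69-fold higher, with adjusted p = 3.00e-08, 3.19e-07 and 3.97e-07.

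In all, 217 features were detected on 3 EsrrbNeg arrays and on none of EsrrbHi, of which 142 were called higher, and 137 showed the opposite, of which 93 were called lower. Among the genes detected in EsrrbHi alone, Aldh3a1, an aldehyde dehydrogenase, read 6.66, 6.71 and 6.89 in EsrrbHi and 4.52, 4.27 and 4.44 in EsrrbNeg (at least 4.34-fold lower in EsrrbNeg, adjusted p = 1.16e-09). Myo1f, an unconventional myosin known from immune cells, read 7.21, 6.40 and 6.64 in EsrrbHi and 4.40, 4.39 and 4.35 in EsrrbNeg (at least 4.33-fold lower in EsrrbNeg, adjusted p = 7.40e-07). Ak7, an adenylate kinase known from cilia, read 6.86, 6.67 and 6.56 in EsrrbHi and 4.38, 4.44 and 4.54 in EsrrbNeg (at least 4.17-fold lower in EsrrbNeg, adjusted p = 3.70e-08). In each of these 3, the EsrrbNeg arrays stayed near the lower end of the scale.

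**Figure D2:**
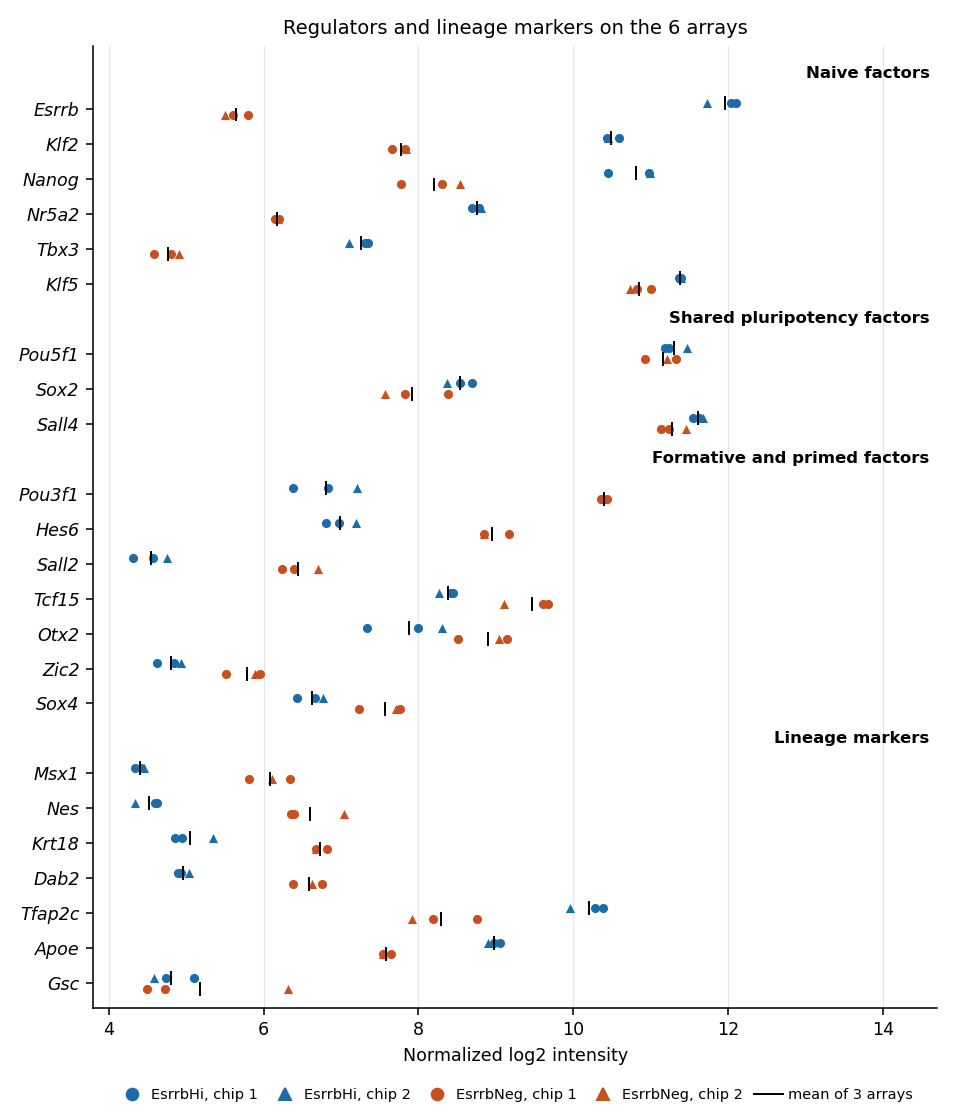
Normalized log2 intensity of 23 regulators and lineage markers on each of the 6 arrays, with EsrrbHi in blue, EsrrbNeg in orange, circles for chip 1, triangles for chip 2 and a bar at the mean of 3 arrays. Naive factors such as Nr5a2 and Tbx3 separate the groups with EsrrbHi high, formative factors such as Hes6 with EsrrbNeg high, Pou5f1 overlaps, and Gsc is raised only on the chip 2 array of EsrrbNeg.

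The ESC label was set against markers of other cell types that a sort could hold. Of 15 neural ectoderm markers on the array, 11 were detected on none of the 6 arrays, among them Sox1 and Pax6. Of 20 extraembryonic endoderm markers 7 were detected on none, among them Gata4, Gata6 and Sox17, and of 15 fibroblast markers 10 were, among them Col1a2 and Col3a1. Of 12 trophectoderm markers only 2 were detected on none, Elf5 and Plac1. Of 19 streak markers 6 were detected on none, among them Mixl1 and Foxa2, and 4 on EsrrbNeg replicate 3 alone, namely Eomes, Cer1, Lhx1 and Fgf8, which are named for their detection after it was seen. Cdx2 and Msx1 were detected on all 3 EsrrbNeg arrays and on no EsrrbHi array. Of the fibroblast markers, Twist1 showed the same, Dcn was detected on 2 EsrrbNeg arrays alone, and Thy1, Acta2 and Mmp2 on all 6 arrays. Of the 2-cell-like markers 5 were on the array, none entered the fit and 3 were detected on none of the 6 arrays. The others, Zscan4c and Tcstv3, were detected on EsrrbNeg replicates 1 and 2 alone. The summed linear intensity of 6 measured fibroblast markers was 308 to 373 in EsrrbHi and 474 to 640 in EsrrbNeg, 3 of them rose and none fell (2 without EsrrbNeg replicate 3), and the part of such cells in the other results was not tested. The sum of 9 extraembryonic endoderm markers was 1668 to 1740 in EsrrbHi and 1100 to 1288 in EsrrbNeg, with 2 rises and 2 falls. That of 8 trophectoderm markers was 1417 to 1725 and 802 to 1072, with 3 rises and 1 fall. The fall was Tfap2c, a gene also used in naive cells, which made up most of that sum in EsrrbHi. The lower sum therefore does not describe the other trophectoderm markers, of which Krt7 and Ascl2 were detected on 2 EsrrbNeg arrays each and Tead4 on 1 EsrrbHi array alone. The sum of 4 neural ectoderm markers was 156 to 166 and 184 to 237, with 1 rise and 1 fall. That of 11 primitive streak markers was 360 to 370 in EsrrbHi, 383 and 385 in EsrrbNeg replicates 1 and 2 and 674 in replicate 3, with 2 rises and 1 fall.

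The individual lineage genes that changed came from several lists and in both directions. Nes, the neural progenitor intermediate filament nestin, read 4.62, 4.60 and 4.34 in EsrrbHi and 6.39, 6.36 and 7.04 in EsrrbNeg (at least 3.81-fold higher in EsrrbNeg, adjusted p = 8.83e-07). Msx1, a homeobox gene of the streak and early mesoderm, read 4.33, 4.41 and 4.46 in EsrrbHi and 5.81, 6.34 and 6.11 in EsrrbNeg (at least 2.67-fold higher in EsrrbNeg, adjusted p = 2.18e-05). Both were below background on all EsrrbHi arrays. The simple epithelial keratins Krt8 and Krt18 rose together (1.49 ± 0.14 and 1.68 ± 0.12), as did Dab2, an endocytic adaptor known from extraembryonic endoderm (1.63 ± 0.16). Against these, Tfap2c, an AP-2 factor used in trophectoderm and germ cells and also in naive cells, read 10.38, 10.27 and 9.96 in EsrrbHi and 8.76, 8.19 and 7.92 in EsrrbNeg (−1.92 ± 0.14, adjusted p = 2.83e-07). Apoe, an apolipoprotein abundant in visceral endoderm, read 8.97, 9.06 and 8.89 in EsrrbHi and 7.54, 7.65 and 7.54 in EsrrbNeg (−1.40 ± 0.10, adjusted p = 1.80e-07). Both were well above background in every sample, unlike Gata4, Gata6, Sox17 and Elf5 of the same lists.

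Hedgehog pathway genes moved in opposite directions. The pathway runs from the receptor PTCH1, which restrains SMO, to the GLI factors that carry the signal to the nucleus. Gli2, the main activating GLI factor, read 9.39, 9.39 and 9.22 on the EsrrbHi arrays and 6.06, 5.81 and 6.45 on the EsrrbNeg arrays (−3.23 ± 0.17, adjusted p = 1.20e-08). Ptch1, the receptor and a common target of the pathway, read 7.51, 7.74 and 7.69 in EsrrbHi and 6.78, 6.76 and 6.35 in EsrrbNeg (−1.02 ± 0.15, adjusted p = 8.44e-05). Both were lower on every EsrrbNeg array. Smo, the transducer, read 5.29, 5.09 and 5.38 in EsrrbHi and 7.21, 6.68 and 7.03 in EsrrbNeg (1.72 ± 0.14, adjusted p = 5.24e-07), and Gli3, the GLI factor that often acts as a repressor, read 6.98, 6.80 and 6.86 in EsrrbHi and 8.0, 7.86 and 8.03 in EsrrbNeg (1.08 ± 0.11, adjusted p = 2.99e-06). These were higher on every EsrrbNeg array, and of the 11 measured genes of the joint hedgehog and retinoid list 4 rose and 2 fell.

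Of 25 measured Wnt pathway genes, 10 rose and 5 fell, with a median of 0.38 and changes from −3.10 to 3.03. The 5 falls were in a ligand, a receptor and proteins that modify or bind ligands. Notum, a secreted enzyme that inactivates Wnt ligands, read 8.19, 8.13 and 8.33 on the EsrrbHi arrays and 5.02, 5.30 and 5.04 on the EsrrbNeg arrays (−3.10 ± 0.13, adjusted p = 2.17e-09). Porcn, which attaches the lipid that Wnt ligands need for secretion, read 7.65, 7.32 and 7.20 in EsrrbHi and 5.86, 5.53 and 5.59 in EsrrbNeg (−1.73 ± 0.18, adjusted p = 4.65e-06). Fzd5, a Wnt receptor, read 9.38, 9.63 and 9.39 in EsrrbHi and 7.98, 8.06 and 7.75 in EsrrbNeg (−1.54 ± 0.09, adjusted p = 4.83e-08). Notum thus changed the most of the 5, which also include Wnt7b, a ligand (−1.57 ± 0.17), and Sfrp1, a secreted antagonist (−1.17 ± 0.11). Among the rises, Nkd2, an intracellular antagonist, was at least 1.80-fold higher in EsrrbNeg, adjusted p = 1.48e-05. Wnt8a, a ligand, read 4.19, 4.24 and 4.17 in EsrrbHi and 5.06, 4.70 and 5.96 in EsrrbNeg (at least 1.49-fold higher in EsrrbNeg, adjusted p = 0.00231), highest in replicate 3. Ctnnb1, which encodes beta-catenin, read 10.23, 10.13 and 10.56 in EsrrbHi and 10.16, 10.30 and 10.46 in EsrrbNeg and its groups overlapped (0.00 ± 0.09, adjusted p = 0.995).

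Among Notch receptors, Notch4 read 8.84, 8.63 and 8.63 on the EsrrbHi arrays and 5.97, 6.19 and 6.32 on the EsrrbNeg arrays (−2.54 ± 0.14, adjusted p = 1.82e-08) and Notch1 read 7.0, 6.38 and 7.20 in EsrrbHi and 6.10, 5.93 and 6.15 in EsrrbNeg (−0.80 ± 0.16, adjusted p = 0.00121), whereas Notch3 read 5.45, 5.58 and 5.87 in EsrrbHi and 6.46, 6.39 and 6.50 in EsrrbNeg (0.82 ± 0.13, adjusted p = 0.000257). Notch4 had the widest gap, and for Notch1 the lowest EsrrbHi array was close to the highest EsrrbNeg array. Of 9 Eph receptors and ephrins, the contact-dependent receptors and ligands that sort cells, 3 rose and none fell, and the median of 0.41 became 0.15 without EsrrbNeg replicate 3. Epha1 read 4.72, 4.73 and 4.81 in EsrrbHi and 6.96, 7.09 and 7.53 in EsrrbNeg (2.44 ± 0.18, adjusted p = 1.96e-07). With the mean of all kept Epha1 probes its change was 1.54. Efna5, an ephrin ligand, read 5.03, 5.33 and 5.22 in EsrrbHi and 6.71, 6.34 and 6.91 in EsrrbNeg (1.46 ± 0.15, adjusted p = 4.78e-06). Epha2 rose by 1.04 ± 0.26, and all 3 were higher on every EsrrbNeg array.

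FGF and ERK genes gave 7 rises and 2 falls among 18 measured, and the median of 0.69 became 0.41 without EsrrbNeg replicate 3. Changes in this list ranged from −1.26 to 3.17. The falls were in ligands. Fgf17 read 9.28, 9.13 and 8.76 on the EsrrbHi arrays and 8.16, 7.82 and 7.41 on the EsrrbNeg arrays (−1.26 ± 0.14, adjusted p = 9.87e-06), and Fgf4, the ligand that ESCs make themselves, read 5.50, 5.30 and 5.76 in EsrrbHi and 4.64, 4.43 and 4.82 in EsrrbNeg (−0.89 ± 0.11, adjusted p = 3.68e-05). Fgf13, a member of the family that is not secreted, read 5.38, 5.40 and 5.66 in EsrrbHi and 7.05, 6.98 and 6.89 in EsrrbNeg (1.5 ± 0.11, adjusted p = 2.88e-07). In the Nodal and BMP list 7 of 23 rose and 2 fell, and changes ranged from −2.68 to 1.46. Fst, the secreted activin and BMP antagonist follistatin, read 4.39, 4.49 and 4.59 in EsrrbHi and 5.41, 5.30 and 7.15 in EsrrbNeg (at least 2.44-fold higher in EsrrbNeg, adjusted p = 0.00287). Replicate 3 stood far above the other EsrrbNeg arrays, though the gene was called without it as well (adjusted p = 0.0176). Smad3, the nuclear transducer of Nodal and activin, rose by 0.82 ± 0.09, Bmpr2, a BMP receptor, by 0.91 ± 0.12 and Skil, a SMAD corepressor, by 0.85 ± 0.16. Pcsk6, a convertase that cleaves Nodal precursors, was lower (−1.02 ± 0.14). Nodal itself was lower on every EsrrbNeg array but missed the fold threshold (−0.54 ± 0.20, adjusted p = 0.0493).

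Of 12 measured LIF and STAT3 genes, 3 fell and 1 rose. Cish, a feedback inhibitor induced by STAT factors, read 7.02, 7.19 and 7.07 on the EsrrbHi arrays and 6.43, 6.13 and 5.88 on the EsrrbNeg arrays (−0.94 ± 0.11, adjusted p = 1.45e-05). Jak1, the kinase at the LIF receptor, read 7.43, 7.57 and 7.69 in EsrrbHi and 8.27, 8.25 and 8.12 in EsrrbNeg (0.65 ± 0.11, adjusted p = 0.000301), a rise that fell below 1.5-fold without EsrrbHi replicate 1 (0.56). The inhibitor gene Socs3 did not pass the fold threshold (−0.48 ± 0.13).

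**Figure D3:**
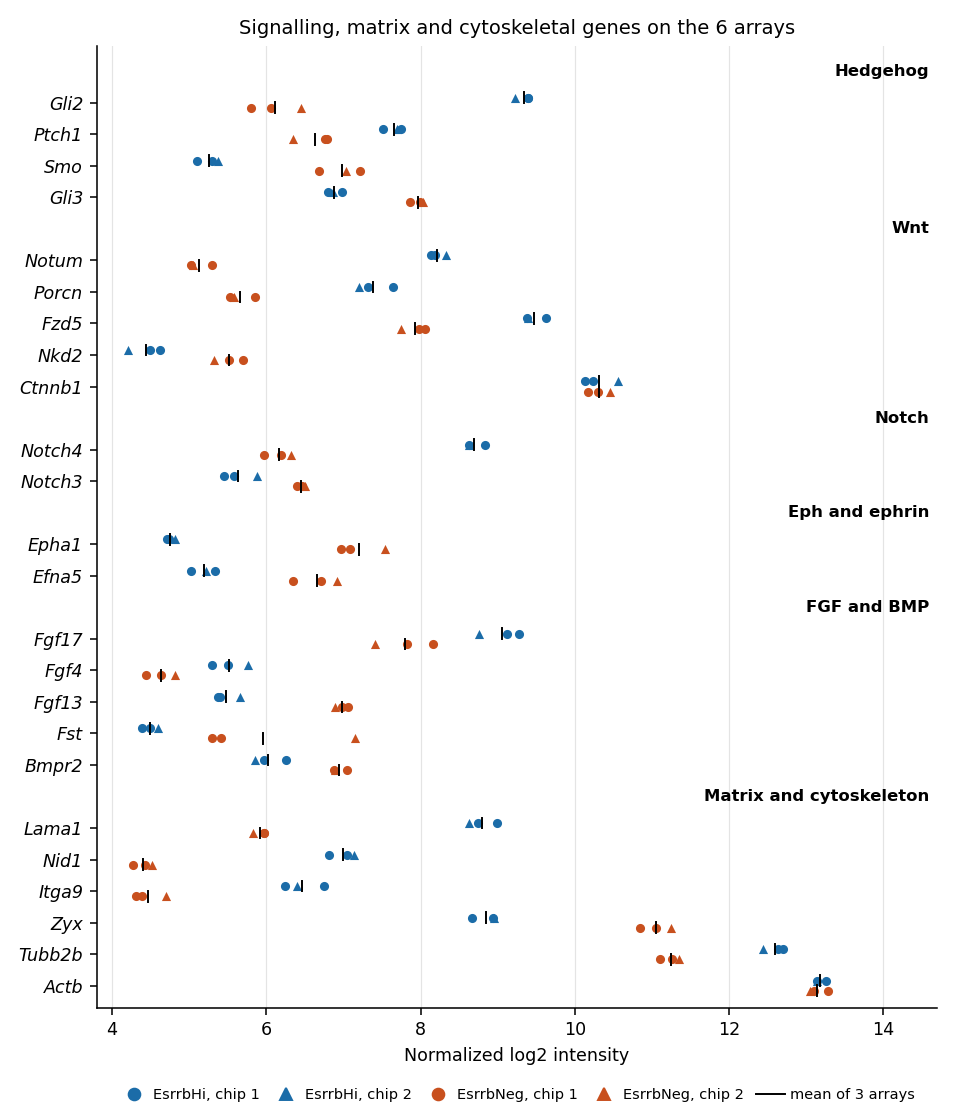
Normalized log2 intensity of 24 signalling, matrix and cytoskeletal genes on each of the 6 arrays, drawn like the plot of regulators. Gli2 and Ptch1 are high in EsrrbHi while Smo and Gli3 are high in EsrrbNeg, Fst is spread by the chip 2 array of EsrrbNeg, and Ctnnb1 and Actb overlap between the groups.

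In the matrix and integrin list, 7 of 27 fell and 4 rose, with a median of 0.03. Lama1, a laminin chain of the embryonic basement membrane, read 8.74, 9.0 and 8.63 on the EsrrbHi arrays and 5.97, 5.96 and 5.83 on the EsrrbNeg arrays (−2.87 ± 0.13, adjusted p = 4.87e-09). Nid1, which links laminin to collagen, read 7.04, 6.81 and 7.13 in EsrrbHi and 4.43, 4.27 and 4.52 in EsrrbNeg (at least 5.13-fold lower in EsrrbNeg, adjusted p = 1.96e-07). Itga9, an integrin chain, read 6.74, 6.25 and 6.39 in EsrrbHi and 4.38, 4.31 and 4.70 in EsrrbNeg (−2.0 ± 0.20, adjusted p = 4.82e-06), and Itgb7, another, was lower (−1.54 ± 0.11). These 4 separated the groups by more than 1 unit on every array. Itga3, an integrin chain that binds laminin, rose (1.28 ± 0.20, adjusted p = 0.000192), as did Ccn1, a matrix-associated protein (1.39 ± 0.17, adjusted p = 1.85e-05).

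Of 32 actin and contractile genes, 6 rose and 4 fell. Zyx, the focal adhesion protein zyxin, read 8.94, 8.67 and 8.95 on the EsrrbHi arrays and 11.05, 10.85 and 11.25 on the EsrrbNeg arrays (2.20 ± 0.12, adjusted p = 2.57e-08). Anxa3, an annexin, read 6.84, 6.41 and 6.73 in EsrrbHi and 8.45, 7.25 and 8.46 in EsrrbNeg (1.39 ± 0.25, adjusted p = 0.000583), with EsrrbNeg replicate 2 well below the other EsrrbNeg arrays. Flnc, a filamin, rose by 1.23 ± 0.15 and Anxa6 was lower (−0.91 ± 0.15). Actb read 13.25, 13.14 and 13.14 in EsrrbHi and 13.28, 13.10 and 13.05 in EsrrbNeg and its groups overlapped (−0.03 ± 0.09, adjusted p = 0.816). Of 20 adhesion and junction genes, 3 rose and 3 fell, which became 4 and 1 without EsrrbNeg replicate 3. Pcdh1, a protocadherin, was at least 3.66-fold higher in EsrrbNeg, adjusted p = 3.70e-08, and Marveld3, a tight junction protein, was at least 1.84-fold higher in EsrrbNeg, adjusted p = 4.19e-05. The claudin Cldn6 rose by 0.86 ± 0.13. Cdh1, which encodes E-cadherin, overlapped between the groups (0.34 ± 0.13, adjusted p = 0.0581).

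Genes known from neurons were also divided, with 6 rises and 7 falls among 24 transport and synapse genes and a median of −0.12. Changes in this list ranged from −2.08 to 3.37. Tubb2b, a beta-tubulin, read 12.70, 12.64 and 12.44 on the EsrrbHi arrays and 11.26, 11.11 and 11.35 on the EsrrbNeg arrays (−1.35 ± 0.11, adjusted p = 8.36e-07). Mapt, which encodes the microtubule protein tau, read 6.48, 6.55 and 6.53 in EsrrbHi and 4.55, 4.24 and 4.51 in EsrrbNeg (at least 3.68-fold lower in EsrrbNeg, adjusted p = 1.55e-08). Dpysl3 read 6.92, 7.10 and 7.24 in EsrrbHi and 5.33, 5.63 and 5.15 in EsrrbNeg (−1.72 ± 0.18, adjusted p = 6.74e-06) and Stmn1, the microtubule destabilizer stathmin, read 7.96, 7.64 and 8.60 in EsrrbHi and 6.34, 6.53 and 7.15 in EsrrbNeg (−1.40 ± 0.14, adjusted p = 3.40e-06). For Stmn1 both replicate 3 arrays were the highest of their group. Sv2a, a synaptic vesicle protein, was at least 1.78-fold higher in EsrrbNeg, adjusted p = 2.91e-05, and Dpysl2, a relative of Dpysl3, rose (0.96 ± 0.16, adjusted p = 0.000275). With the mean of all kept Dpysl2 probes its change was 0.51, under 1.5-fold. Among 15 axon guidance genes 6 rose and 3 fell. The semaphorins Sema3f (at least 2.02-fold) and Sema6a (at least 1.52-fold) were higher, with adjusted p = 6.14e-06 and 4.13e-05, and Sema4b was lower (−0.95 ± 0.09, adjusted p = 2.16e-06).

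In the DNA methylation list, 3 of 9 genes rose and 1 fell. Dnmt3b, a de novo methyltransferase, read 12.20, 12.32 and 12.32 on the EsrrbHi arrays and 13.31, 13.25 and 13.07 on the EsrrbNeg arrays (0.92 ± 0.09, adjusted p = 3.34e-06). Tet1, which oxidizes 5-methylcytosine, read 10.40, 10.28 and 10.00 in EsrrbHi and 9.57, 9.24 and 8.89 in EsrrbNeg (−0.99 ± 0.19, adjusted p = 0.000924). Uhrf2, a relative of the maintenance cofactor UHRF1, read 8.20, 8.07 and 7.93 in EsrrbHi and 9.37, 9.05 and 9.17 in EsrrbNeg (1.13 ± 0.10, adjusted p = 1.30e-06). Each of these 3 separated the groups. The maintenance genes Dnmt1 (−0.21 ± 0.09, adjusted p = 0.0945) and Uhrf1 (−0.02 ± 0.08, adjusted p = 0.884) overlapped between them.

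Among 24 histone demethylases and methyltransferases, 2 rose and 3 fell (20.8%, close to the 18.1% of all features). Setd7, a lysine methyltransferase, read 5.20, 4.48 and 5.16 on the EsrrbHi arrays and 6.87, 6.65 and 7.06 on the EsrrbNeg arrays (1.91 ± 0.15, adjusted p = 3.96e-07). Nsd2, which methylates histone H3 on lysine 36, read 5.58, 5.26 and 5.44 in EsrrbHi and 7.09, 6.93 and 7.31 in EsrrbNeg (1.68 ± 0.13, adjusted p = 3.96e-07). Kdm3a, a demethylase of histone H3 lysine 9, read 9.82, 9.85 and 9.98 in EsrrbHi and 8.34, 8.25 and 8.57 in EsrrbNeg (−1.49 ± 0.15, adjusted p = 4.27e-06), and Kdm5b, a demethylase of lysine 4, was lower (−0.90 ± 0.12). Of 21 Polycomb genes 3 rose and 3 fell. Phc2, a subunit of repressive complex 1, rose (1.20 ± 0.10, adjusted p = 6.28e-07). Mtf2 and Eed, an accessory and a core subunit of repressive complex 2, fell (−0.91 ± 0.11, adjusted p = 1.71e-05 and −0.72 ± 0.09, adjusted p = 4.35e-05). Ezh2, the catalytic subunit of that complex, did not pass the test (−0.24 ± 0.11).

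Interferon and MHC class I genes were called in 21 of 27 measured cases, 17 higher and 4 lower, with a median of 0.97. Their summed linear intensity went the other way, from 16671 to 17331 in EsrrbHi and from 12409 to 14049 in EsrrbNeg. Such a sum is set mainly by the most abundant members and does not describe the typical member of the list. Sequences of their promoters are shown because interferon-responsive genes share a short element and because the members went both ways. In the letters GAAANNGAAA, searched in the same way, the element was held by 3.99% of 27025 genes and by 3.51% of the 6931 tested genes with a promoter. Of 26 list members with a promoter, 14 held it (53.8%), of which 10 were called higher and 3 lower. Windows of 80 bases ending before the start site, 5′ to 3′ on the strand of the gene with every match in capitals, were as follows.

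Gbp2, chr3:142620569-142620648, plus strand, called higher: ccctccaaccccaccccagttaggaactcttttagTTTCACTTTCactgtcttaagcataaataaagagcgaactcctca
Gbp2b, chr3:142594675-142594754, plus strand, called higher: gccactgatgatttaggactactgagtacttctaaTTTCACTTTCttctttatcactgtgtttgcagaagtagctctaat
B2m, chr2:122147513-122147592, plus strand, called higher: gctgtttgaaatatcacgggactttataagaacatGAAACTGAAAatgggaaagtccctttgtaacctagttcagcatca
Isg15, chr4:156200846-156200925, minus strand, called higher: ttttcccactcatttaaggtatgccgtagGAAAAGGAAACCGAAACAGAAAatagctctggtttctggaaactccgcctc
Oas1g, chr5:120887614-120887693, minus strand, called lower: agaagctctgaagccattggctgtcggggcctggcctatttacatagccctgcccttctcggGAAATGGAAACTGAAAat

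The match in Gbp2 and Gbp2b lies on the opposite strand, with the same letters in both, and Isg15 holds 3 overlapping matches and Oas1g 2. B2m, the light chain of MHC class I, was chosen for display after its values were seen and read 6.99, 6.64 and 6.72 in EsrrbHi and 7.95, 7.87 and 8.32 in EsrrbNeg (1.26 ± 0.15, adjusted p = 1.54e-05). Gbp2, a guanylate-binding GTPase, read 4.20, 4.36 and 4.67 in EsrrbHi and 7.70, 7.54 and 8.10 in EsrrbNeg. Its paralog Gbp2b read 4.19, 4.32 and 4.21 in EsrrbHi and 6.97, 6.72 and 7.24 in EsrrbNeg. Both were below background on every EsrrbHi array, at least 8.66-fold and at least 4.96-fold higher in EsrrbNeg. Isg15, a ubiquitin-like protein, read 4.15, 4.30 and 4.36 in EsrrbHi and 5.74, 5.70 and 5.55 in EsrrbNeg (at least 1.99-fold higher in EsrrbNeg, adjusted p = 2.40e-06). Tap2, a subunit of the peptide transporter of the class I pathway, read 4.29, 4.24 and 4.13 in EsrrbHi and 5.66, 5.47 and 5.71 in EsrrbNeg (at least 1.93-fold higher in EsrrbNeg, adjusted p = 1.22e-07), and Bst2, the antiviral protein tetherin, rose by 1.28 ± 0.18. In the opposite direction, Oas1g, an oligoadenylate synthetase, read 6.86, 6.67 and 6.49 in EsrrbHi and 4.37, 4.68 and 4.51 in EsrrbNeg (at least 4.10-fold lower in EsrrbNeg, adjusted p = 8.31e-08). Its promoter carries the element, as do those of 10 of the 16 members called higher that have a promoter, and a match is a description and not a site.

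Promoters were also searched for AAGGTCA, the core of the element that estrogen-related receptors bind, since ESRRB is the sorted factor. It was held by 5.38% of all 27025 promoters, by 3.52% of those of tested genes, by 3.07% of 651 called higher and by 5.01% of 619 called lower. None of the 48 promoters of genes that fell at least 4-fold held it. At the 3.52% of tested genes few matches would be expected among so few promoters, so this is no result about these genes. Enhancers outside the promoters were not searched. The 2 windows below, chosen after their values were seen, show it in genes described here, in Ccnd3 on the opposite strand.

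Ccnd3, chr17:47504917-47504996, plus strand, called lower: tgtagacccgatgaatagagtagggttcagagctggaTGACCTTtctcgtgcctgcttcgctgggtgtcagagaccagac
Ctsa, chr2:164832634-164832713, plus strand, called lower: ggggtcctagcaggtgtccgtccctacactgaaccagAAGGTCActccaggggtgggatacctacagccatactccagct

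Ccnd3, the D-type cyclin D3, read 10.29, 10.13 and 10.12 on the EsrrbHi arrays and 9.17, 8.98 and 9.25 on the EsrrbNeg arrays (−1.05 ± 0.11, adjusted p = 6.53e-06), and Ctsa, the lysosomal cathepsin A, read 7.15, 7.32 and 6.99 in EsrrbHi and 5.48, 5.84 and 5.71 in EsrrbNeg (−1.48 ± 0.12, adjusted p = 6.37e-07). Neither had overlapping groups. With the mean of all kept Ctsa probes its change was −0.97. In the cell cycle list 2 of 29 rose and 4 fell (20.7%, close to the 18.1% of all features), with a median of −0.11. Ccne2, an E-type cyclin, read 5.27, 4.79 and 5.03 in EsrrbHi and 6.49, 6.19 and 5.99 in EsrrbNeg (1.19 ± 0.14, adjusted p = 1.32e-05), and Mycl, a MYC family factor, rose by 0.83 ± 0.10. Of 35 replication-dependent histone genes, 6 rose and none fell (17.1% called, against 18.1% of all features). Many of these genes are near-identical in sequence, so that a probe may read several. Of 20 ribosomal protein genes none was called (median −0.03).

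Genes of the p53 and apoptosis list rose in 10 of 30 cases and fell in none, with a median of 0.32. Plk2, a polo-like kinase induced by p53, read 5.59, 5.67 and 6.03 on the EsrrbHi arrays and 7.28, 7.26 and 7.16 on the EsrrbNeg arrays (1.47 ± 0.13, adjusted p = 1.40e-06). Apaf1, the scaffold of the apoptosome, read 6.71, 7.21 and 7.34 in EsrrbHi and 8.39, 8.32 and 8.19 in EsrrbNeg (1.21 ± 0.15, adjusted p = 2.07e-05), and Phlda3, a p53-induced inhibitor of AKT, read 6.75, 7.23 and 7.25 in EsrrbHi and 8.12, 8.35 and 8.11 in EsrrbNeg (1.11 ± 0.14, adjusted p = 2.91e-05). For all 3 the difference was smaller on chip 2 (1.13, 0.85 and 0.85) than on chip 1 (1.64, 1.40 and 1.25), and replicate 1 was the lowest EsrrbHi array. Casp8, the initiator caspase of death receptors, was at least 1.44-fold higher in EsrrbNeg, adjusted p = 6.78e-06.

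**Figure D4:**
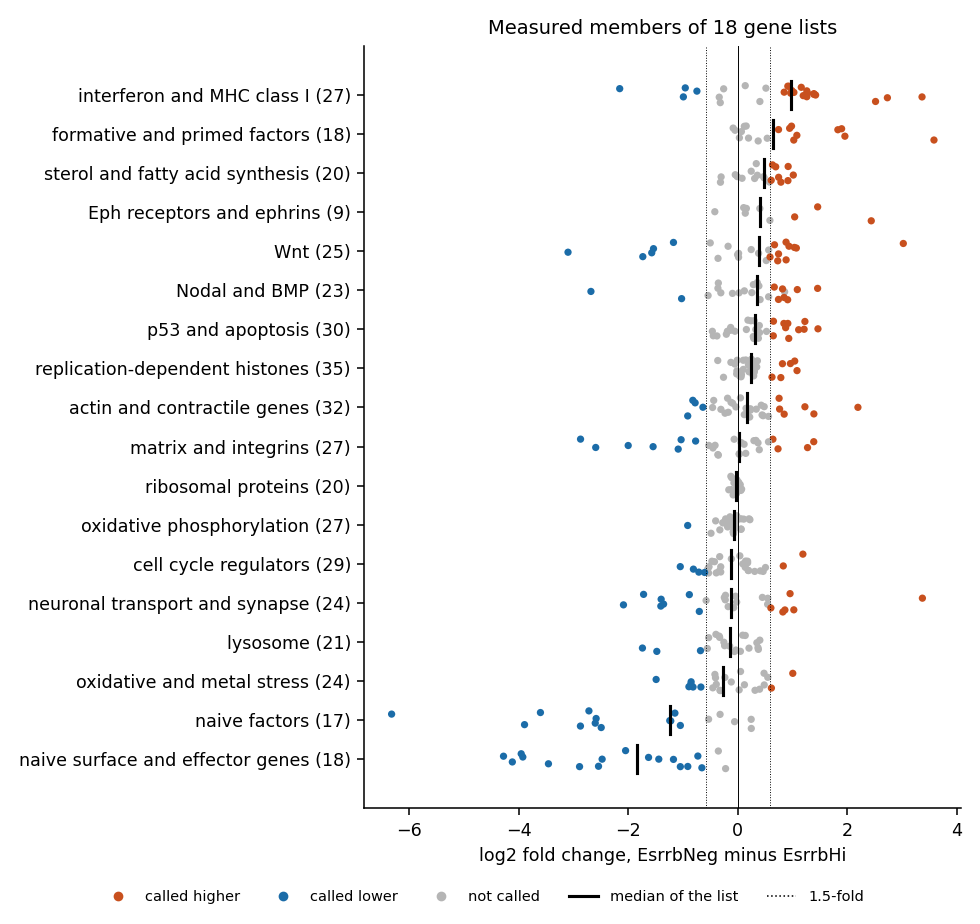
Log2 fold change, EsrrbNeg minus EsrrbHi, of each measured member of 18 gene lists, ordered by the median of the list (black bar), with the number of members after its name. Orange and blue points were called higher and lower, dotted lines mark 1.5-fold, both naive lists lie at the low end, and the interferon list has the highest median of those drawn together with 4 members called lower.

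Of 27 oxidative phosphorylation genes none rose and 1 fell, and the median was −0.07. It was Cox7a1, a muscle-type subunit of complex IV (−0.91 ± 0.11, adjusted p = 2.77e-05). In glycolysis 2 of 20 rose and 2 fell (20%, close to the 18.1% of all features). Pfkp, the platelet form of phosphofructokinase, read 7.63, 7.83 and 7.5 on the EsrrbHi arrays and 5.62, 6.04 and 5.98 on the EsrrbNeg arrays (−1.77 ± 0.17, adjusted p = 2.39e-06), Slc2a1, the glucose transporter GLUT1, rose by 0.68 ± 0.17 (0.57, under 1.5-fold, without EsrrbNeg replicate 1), and Gapdh read 12.58, 12.59 and 12.58 in EsrrbHi and 12.65, 12.67 and 12.67 in EsrrbNeg and was not called (0.08 ± 0.08, adjusted p = 0.483). Of 21 lysosomal genes 3 fell and none rose (14.3% called, against 18.1% of all features). Glb1, the lysosomal beta-galactosidase, read 9.45, 9.56 and 9.49 in EsrrbHi and 7.67, 7.78 and 7.84 in EsrrbNeg (−1.74 ± 0.09, adjusted p = 1.14e-08), while Lamp1, a lysosomal membrane protein, overlapped between the groups (0.05 ± 0.09).

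The oxidative and metal stress list gave 6 falls and 2 rises among 24 genes and a median of −0.27. Sod2, the mitochondrial superoxide dismutase, read 11.76, 11.67 and 11.53 on the EsrrbHi arrays and 10.20, 10.15 and 10.16 on the EsrrbNeg arrays (−1.49 ± 0.09, adjusted p = 3.88e-08), and Gpx4, the peroxidase that removes lipid peroxides, read 12.34, 12.13 and 12.17 in EsrrbHi and 11.38, 11.40 and 11.20 in EsrrbNeg (−0.89 ± 0.09, adjusted p = 6.83e-06). Both were even within each group. Gpx3, the secreted peroxidase, went the other way (1.01 ± 0.18, adjusted p = 0.000518). Among 21 stress response and chaperone genes 4 rose and 2 fell. Ddit4, which restrains mTORC1, read 6.12, 6.47 and 6.75 in EsrrbHi and 8.49, 8.79 and 9.06 in EsrrbNeg (2.34 ± 0.20, adjusted p = 9.51e-07), and Cebpb, a leucine zipper factor, read 5.74, 5.79 and 5.81 in EsrrbHi and 7.61, 7.41 and 7.62 in EsrrbNeg (1.76 ± 0.11, adjusted p = 6.28e-08). Xbp1, a factor of the unfolded protein response, read 10.20, 9.84 and 9.90 in EsrrbHi and 8.76, 8.43 and 8.74 in EsrrbNeg (−1.34 ± 0.14, adjusted p = 6.78e-06), and Hspb1, a small heat shock protein, read 11.27, 11.17 and 11.10 in EsrrbHi and 9.96, 10.17 and 9.93 in EsrrbNeg (−1.16 ± 0.14, adjusted p = 2.55e-05).

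Of 20 sterol and fatty acid synthesis genes, 8 rose and none fell, with a median of 0.48. The count rested on 1 array, since without EsrrbNeg replicate 3 only 3 were called. Sqle, the squalene epoxidase, read 8.79, 8.83 and 8.91 on the EsrrbHi arrays and 9.65, 9.50 and 9.75 on the EsrrbNeg arrays (0.79 ± 0.09, adjusted p = 9.74e-06), and Cyp51, a demethylase of the sterol pathway, read 6.68, 6.25 and 6.41 in EsrrbHi and 7.31, 7.20 and 7.60 in EsrrbNeg (0.92 ± 0.15, adjusted p = 0.000244). Scd2, a fatty acid desaturase, read 5.12, 5.33 and 5.11 in EsrrbHi and 5.64, 6.03 and 6.96 in EsrrbNeg, with replicate 3 the highest, and its call (1.02 ± 0.23, adjusted p = 0.00326) was lost without that array (0.58, adjusted p = 0.00926). In the one-carbon and amino acid list 4 of 16 rose and 2 fell, against 2 and 3 without EsrrbNeg replicate 3. Phgdh and Psat1, the enzymes at the start of serine synthesis, rose (0.76 ± 0.10 and 0.77 ± 0.14), whereas Gldc, which breaks down glycine, fell (−0.71 ± 0.10, adjusted p = 0.000107), and Cth, of cysteine synthesis, was lower (−0.78 ± 0.13).

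Leaving out EsrrbNeg replicate 3 kept 1815 of the 2010 calls, lost 195 (121 higher and 74 lower) and added 163. Among the largest lost calls were Lor, the cornified envelope protein loricrin, at 4.58, 4.69 and 4.63 in EsrrbHi and 5.82, 5.91 and 6.92 in EsrrbNeg (1.20, adjusted p = 0.0672 without the array), and Fos, an immediate early gene, at 4.75, 4.93 and 5.09 in EsrrbHi and 5.74, 5.75 and 6.84 in EsrrbNeg (0.88, adjusted p = 0.127 without it). Vldlr, a lipoprotein receptor, read 4.27, 4.21 and 4.27 in EsrrbHi and 4.76, 4.77 and 6.2 in EsrrbNeg, and Igf2, an imprinted growth factor, read 7.82, 7.77 and 8.33 in EsrrbHi and 8.77, 7.97 and 10.19 in EsrrbNeg. In each of these 4 replicate 3 was the highest EsrrbNeg array, and for Igf2 EsrrbNeg replicate 2 lay within the range of EsrrbHi. The calls of Fos, Vldlr and Igf2 were also lost without an EsrrbHi array, with adjusted p between 0.0540 and 0.173 in those fits. Of the 2010 calls, 2008 had the same sign on both chips, and the exceptions were Kdelr3 and Tgfbi, which are named only for this. The calls were made on both chips together, so such agreement is largely built into their choice and is no separate check.

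The test of a different change on chip 2 than on chip 1 called 3 features (smallest adjusted p = 0.0440, 623 features at an unadjusted p under 0.05), with 1 array per group on chip 2, assumed to vary like the others. Gsc, a homeobox gene of the anterior streak, changed by −0.30 on chip 1 and by 1.72 on chip 2, with arrays of 5.10, 4.74 and 4.59 in EsrrbHi and 4.5, 4.73 and 6.31 in EsrrbNeg. Xlr4a, an X-linked gene with near-identical copies, changed by −1.25 and 1.64, with arrays of 5.97, 5.59 and 5.48 in EsrrbHi and 4.52, 4.54 and 7.13 in EsrrbNeg. The remaining feature has no gene name, and under median scaling or without background correction no feature was called. Chac1, a glutathione-degrading enzyme of the stress response, rose by 0.76 and 2.92 on the 2 chips, which did not pass the test of the difference, and read 5.65, 5.66 and 5.30 in EsrrbHi and 6.73, 6.09 and 8.22 in EsrrbNeg. Its call was lost without EsrrbHi replicate 3 (1.12, adjusted p = 0.0598).

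**Figure D5:**
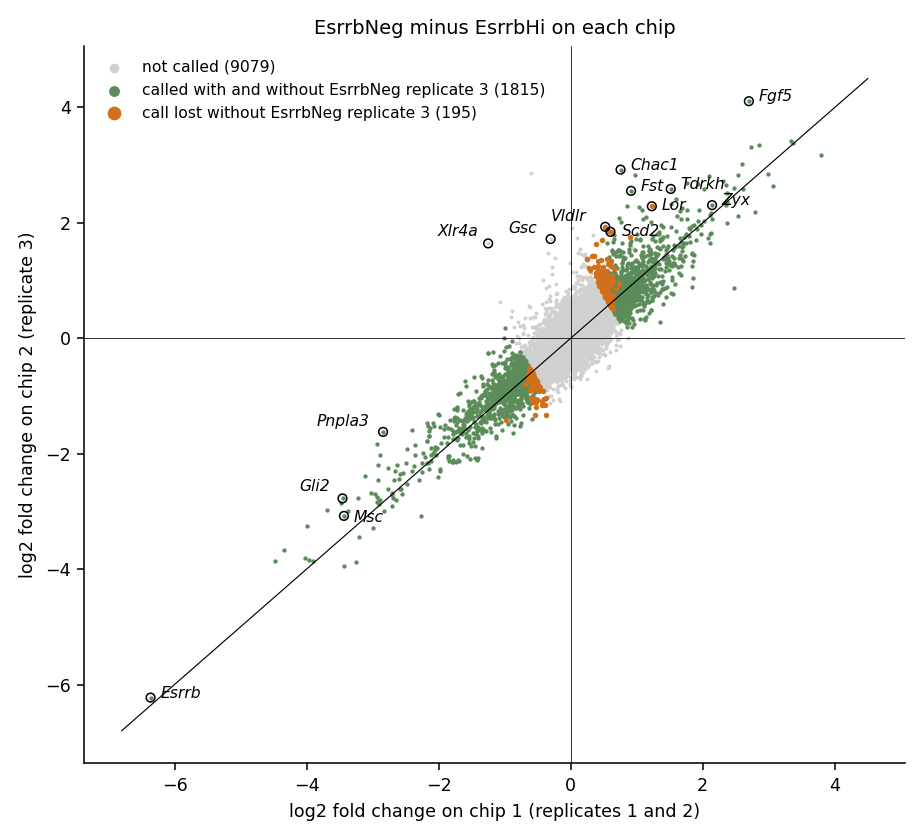
Log2 fold change, EsrrbNeg minus EsrrbHi, of each feature on chip 1 (replicates 1 and 2, horizontal axis) and on chip 2 (replicate 3, vertical axis), with the line of equal change. Green points are the 1815 calls that hold without EsrrbNeg replicate 3, orange points the 195 that are lost, and Gsc and Xlr4a have opposite signs on the chips.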

How the data were processed

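Expression was measured on 12 single-colour Illumina MouseWG-6 v2 arrays, of which the 3 EsrrbHi and 3 EsrrbNeg arrays were compared. The authors deposited bead-summarised probe intensity on a linear scale, read with beadarray and not normalized, with a detection p-value per probe judged against negative control beads. They also deposited a log2 table of the same arrays, quantile-normalized and adjusted for batch with ComBat, which was used as an alternative only, on the scale the study's methods give. Tool versions of the authors are not given in the sources used here.

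Intensities were background-corrected, quantile-normalized and log2-transformed with neqc (offset 16) in limma 3.58.1 under R 4.3.3. Probes detected at a p of at most 0.01 on every array of at least 1 group were kept (14834 of 45281). Of all probes, 32093 have 1 gene name in the platform annotation, 16 several and 13172 none, and 99.8% of the named ones were matched to the RefSeq gene table. The probe with the highest mean stood for a gene, and 2602 probes without a name were tested as they are. Only Adap1 had probes called in opposite directions. A model with group and chip was fitted to all 12 arrays (7 residual degrees of freedom), since each ESC group lies on both chips, and a further model with a coefficient per group and chip gave the chip test. Printed levels have no chip effect removed. The fit was also run on data simulated from its own model. That checks the working of the fit and cannot show whether the model suits these arrays.

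Replicate numbers come from the labels. Deviations of same-numbered EsrrbHi and EsrrbNeg arrays from their group means correlated at 0.238, 0.360 and 0.450. Arrays of chip 1 with different numbers gave 0.189 (EsrrbHi replicate 2 and EsrrbNeg replicate 1) and −0.0372 (EsrrbHi replicate 1 and EsrrbNeg replicate 2). Replicate 3 alone is on chip 2, so a pairing by number beyond a shared chip was not tested. The number of arrays and the signal over background limit the precision.

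The comparison, the gene lists and the tests were chosen with earlier results of these data known. Genes were named from the 20 largest rises and falls whose groups did not overlap, up to 8 called members of each list and its 3 uncalled members of highest mean signal, Esrrb, Nanog, Klf4, Pou5f1 and Sox2, the 12 genes with the largest lower bound in each direction, 10 calls lost without EsrrbNeg replicate 3 and 10 genes of the chip test. Promoters were read from a RefSeq table of build GRCm38.p6 with Python 3.11.15, and figures were drawn with matplotlib 3.10.9. Alternatives covered background correction, scaling, the detection filter, the choice of probe, the chip term, a replicate block, each chip alone, a 2-fold threshold and each array left out.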

Additional observations from a re-analysis of the deposited data

How the results depend on the processing

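The count of called features depended on the background correction, since background left in the signal shrinks fold changes by construction. Against 2010 calls (1005 higher and 1005 lower), quantile normalization without background correction gave 745 (309 and 436, 744 of them among the 2010), an offset of 50 gave 1117 (509 and 608) and the authors' log2 table gave 725 of 9990 tested (300 and 425). A 2-fold threshold left 746 (324 and 422), and the arrays of chip 2 alone, with 1 array per ESC group assumed to vary like the epiblast stem cell arrays, gave 1302 (664 and 638). Calls higher in EsrrbNeg were as many as calls lower, but 41.5% of all calls without background correction and 41.4% in the log2 table. The other alternatives stayed within 1.5 times, and leaving out 1 array gave 1978 to 2117 calls, 960 to 1112 higher and 988 to 1047 lower. With the replicate block over the 6 arrays 2020 features were called, 2009 of them in common, and the block changed the call of none of the 168 genes tested here by name, while members called higher went from 7 to 9 in the FGF and ERK list, from 7 to 8 in the Nodal and BMP list and from 2 to 3 in the extraembryonic endoderm list. The chip test called 3 features with either offset and 0 under median scaling or without background correction.

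Of 147 named genes that were called, 138 kept the call whichever array was left out, and the exceptions were Chac1, Fos, Igf2, Jak1, Lor, Scd2, Slc2a1, Sox2 and Vldlr. More of the 147 calls depended on background correction. Without it 37 were lost, against 18 with an offset of 50 and 34 in the authors' log2 table. Taking the mean of all kept probes of a gene lost 4. Without background correction, Fgf4 changed by −0.29 and Casp8 by 0.26. Among lists, without EsrrbNeg replicate 2 the streak and the extraembryonic endoderm list each had 4 members called higher in place of 2, and counts of 1 to 4 in the LIF, germline, glycolysis, stress and one-carbon lists moved by 1 or 2 when 1 array was left out. Signs turned only for 10 named genes that were not called. Leaving out 1 array at a time, the log2 change ranged from −0.0897 to 0.0130 for Actb, −0.0537 to 0.0421 for Ctnnb1, −0.132 to 0.0380 for Etv5, −0.0364 to 0.136 for Lamp1, −0.0563 to 0.0202 for Uhrf1, −0.185 to 0.0359 for Zscan10, −0.236 to 0.655 for Gsc and −1.15 to 0.0318 for Xlr4a. On chip 1 alone Ctnnb1 was 0.0518, Uhrf1 0.0162, Zscan10 0.0292 and Gsc −0.304, on chip 2 alone Cdh1 was −0.0449 and Xlr4a 1.64, under median scaling Gapdh was −0.0577 and Lamp1 −0.0343, and Xlr4a was 0.00279 without background correction.

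A level near the lower end of the scale is a bound. Only 3 arrays per group from 1 line entered, and replicate 3 alone represents chip 2.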

Other observations

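Germline, imprinted and RNA-binding genes are described here as further groups of the same comparison. Of 12 germline genes, 2 rose and 4 fell. Tdrkh, a tudor protein of the piRNA pathway, read 6.23, 5.93 and 6.03 on the EsrrbHi arrays and 7.59, 7.60 and 8.62 on the EsrrbNeg arrays (1.87 ± 0.21, adjusted p = 9.22e-06), with replicate 3 the highest EsrrbNeg array, and Tdrd12, another tudor protein of that pathway, read 9.30, 9.54 and 9.61 in EsrrbHi and 8.41, 8.61 and 8.18 in EsrrbNeg (−1.08 ± 0.12, adjusted p = 1.03e-05). Of 15 imprinted genes, 6 rose and none fell. Ndn, the paternally expressed gene of necdin, read 7.87, 7.66 and 7.67 in EsrrbHi and 9.05, 8.96 and 9.03 in EsrrbNeg (1.28 ± 0.11, adjusted p = 8.36e-07), and Gnas, which encodes a stimulatory G protein subunit, rose less on chip 1 (0.58) than on chip 2 (1.41), a difference that did not pass its test.

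Among 21 RNA-binding and splicing regulators, 3 rose and 1 fell (19%, close to the 18.1% of all features). Without EsrrbNeg replicate 3 or EsrrbHi replicate 3, 5 rose. Lin28b, an inhibitor of let-7 maturation, read 4.77, 4.66 and 5.19 on the EsrrbHi arrays and 5.79, 5.71 and 6.27 on the EsrrbNeg arrays (1.05 ± 0.10, adjusted p = 1.73e-06). Nanos3, an RNA-binding protein of germ cells, read 5.22, 5.19 and 5.44 in EsrrbHi and 4.30, 4.34 and 4.26 in EsrrbNeg (at least 1.56-fold lower in EsrrbNeg, adjusted p = 0.000131) and was above background on no EsrrbNeg array.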
